A study of Mus musculus with 92 samples.

Results

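The genes described here are the heat shock proteins and chaperones measured in single blastomeres of mouse 8-cell embryos. They make up 59 of the 7886 genes in the count table and were chosen by symbol: the HSP families, the J proteins (Dnaja, Dnajb and Dnajc), the BAG factors, Tcp1 and Cct2 to Cct8. By the known site of the protein, 39 act in the cytosol or nucleus, 11 in the endoplasmic reticulum (ER) and 9 in mitochondria. The GENCODE M21 annotation holds 90 protein-coding genes that meet the rule. Those outside the 59, among them the heat-inducible Hspa1a and Hspa1b, were not analysed here. Hspbap1 entered through its symbol and is a partner of a small heat shock protein rather than a chaperone.

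All embryos were wild-type C57BL/6N, made by IVF per the sample titles, injected as zygotes and taken apart at the 8-cell stage, and the series' design text describes the let-7 material as mimics. The Let7d group held 18 blastomeres from 3 mouse ids, the Let7e group 20 from 4, the mi699a-5p group 21 from 4, and the NC group, given the negative control, 22 from 3. A mouse id held 2 to 8 blastomeres, the fewest in Let7e replicate 3. One pair of Let7d replicate 2 columns differed by about the sampling noise and was counted as 1 blastomere. Each blastomere was sequenced by Smart-seq2, which reads whole transcripts from a single cell without molecular identifiers, so amplification copies count as reads. Counts were summed over the blastomeres of each mouse id, which served as the replicate. What a mouse id stands for (an embryo, a dam or a donor) is not given in the labels, so p-values measure the spread between mouse ids, and every group has mouse ids of its own, so a batch shared by a group cannot be told apart from what was injected. In such sums, fewer cells that express a gene and less RNA per cell cannot be told apart.

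Chaperones bind unfolded proteins and keep them from aggregating while they fold, cross membranes or are handed to degradation. HSP70 proteins cycle between ATP and ADP: J proteins deliver clients and start hydrolysis, and BAG, HSP110 and Hspbp1 factors release the nucleotide, while HSP90 and the TRiC ring act on later folding steps, TRiC above all on actin and tubulin. The ER and mitochondria hold their own sets, which the unfolded protein responses of these organelles raise under stress, and the mouse embryo is known for transcribing heat shock genes among its earliest genes.

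Both injected let-7 microRNAs are shown because their pairing region is the same. In the mature forms listed by RefSeq for GRCm38.p6, capitals mark the seed (bases 2 to 8). The mature let-7d-5p lies at chr13:48536078-48536099 on the minus strand and let-7e-5p at chr17:17830366-17830387 on the plus strand.
let-7d-5p: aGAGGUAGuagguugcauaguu
let-7e-5p: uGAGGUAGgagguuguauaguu
Both are 22 nt long and differ at 3 bases, the first at position 1 and the last at position 16, counted from the 5′ end and all outside the seed. The name mi699a-5p is used as the labels write it.

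A blastomere carried 1575609 to 4950404 reads and 5562 to 7497 detected genes, and a mouse id 6329464 to 24037593 reads. Mean reads per cell of a mouse id were 2991646 to 4071285 in Let7d, 2916582 to 3164732 in Let7e and 1936975 to 2437853 in mi699a-5p, against 2225246 to 2732434 in NC. Of 8 preimplantation embryo markers 7 were measured, with a summed level between 4418 and 10010 CPM (counts scaled to a common library size) in every mouse id, while 0 of 8 cumulus and granulosa markers and 0 of 4 sperm markers were among the genes analysed. Cells differed in the share of nuclear-gene reads that fell in 534 genes with a principal transcript under 1000 bases, chaperones left out. This share ran from 6.49% to 41.7% (median 14.5%), and 7 cells exceeded 25%: 2 of Let7e replicate 1, 2 of mi699a-5p replicate 1, 1 of mi699a-5p replicate 2 and 2 of NC replicate 3. It ran on through this cut, with 24.0% as the highest share at or below it and 25.1% as the lowest above. The median share was 11.5% for Let7d cells, 14.4% for Let7e cells and 15% for mi699a-5p cells, against 19.6% for NC cells. The summed level of 3 Y-linked genes, which follows the sex of the embryo, was 0.182 to 144 CPM in Let7d, 45.5 to 160.3 CPM in Let7e and 0.235 to 175 CPM in mi699a-5p, against 62.9 to 160.3 CPM in NC.

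Chaperone transcripts were abundant, and Hsp90ab1, Hspa8 and the TRiC subunits made up most of them. Together the 59 genes took 1.88% to 3.195% of the reads of a mouse id (median 2.47%), of which Hsp90ab1 and Hspa8 alone took 0.700% to 1.45%. By group the share of all 59 averaged 2.67% ± 0.455 (SD) over the 3 Let7d mouse ids, 2.58% ± 0.486 over the 4 of Let7e and 2.49% ± 0.2 over the 4 of mi699a-5p, against 2.41% ± 0.0723 over the 3 of NC, with overlapping ranges. ER chaperones took 0.205% ± 0.0512 of Let7d reads, 0.155% ± 0.0278 of Let7e reads and 0.215% ± 0.0360 of mi699a-5p reads, against 0.159% ± 0.0441 of NC reads. Mitochondrial chaperones took 0.158% ± 0.0171 of Let7d reads, 0.158% ± 0.00625 of Let7e reads and 0.168% ± 0.0104 of mi699a-5p reads, against 0.144% ± 0.0149 of NC reads.

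**Figure D1:**
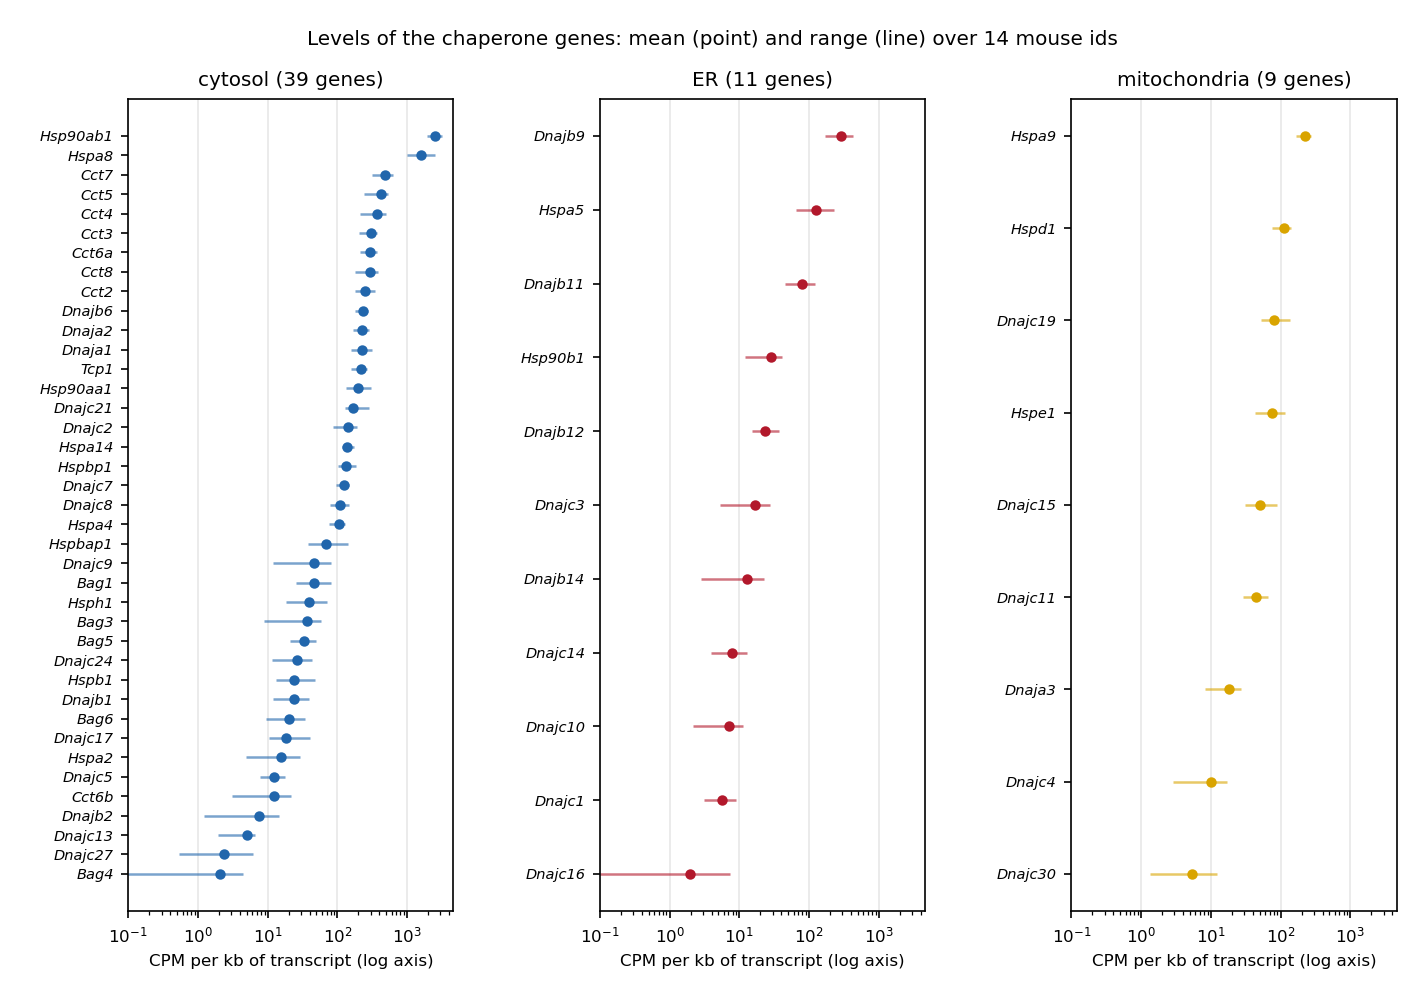
Levels of the 59 chaperone genes in the cytosol, ER and mitochondria, in CPM per kb of transcript on a log axis, as the mean (point) and range (line) over 14 mouse ids. Hsp90ab1 and Hspa8 stand at 2500 and 1570 CPM per kb, above every other gene shown, and the lines of Bag4 and Dnajc16 run off the axis because their lowest mouse id is at 0.

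Per kb of transcript, the levels spanned a wide range. The median was 110 CPM per kb in the cytosol, 16.8 in the ER and 50.4 in mitochondria, beside 14.97 over all genes with a length. Hsp90ab1, the constitutive cytosolic HSP90, led with 2500 CPM per kb, followed by Hspa8, the constitutive HSP70, with 1570. Hsp90ab1 exceeded Hspa8 in 14 of 14 mouse ids, although their ranges overlapped (1949 to 3185 for Hsp90ab1 and 980.3 to 2475 for Hspa8). The step from Hspa8 to Cct7 was the one place in the order of 59 levels where the ranges of neighbours did not overlap: Hspa8 was at or above 980.3 CPM per kb and Cct7 never exceeded 618.4.

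The 8 TRiC subunits lay below these, with Dnajb9 between Cct8 and Cct2 and other chaperones between Cct2 and Tcp1. Subunit means were 475 CPM per kb for Cct7, 418 for Cct5, 372 for Cct4 and 300 for Cct3. The other subunits had 297 (Cct6a), 293 (Cct8), 252 (Cct2) and 221 (Tcp1). Within a mouse id the subunit with the highest level exceeded the one with the lowest by 1.79 to 2.79 times, and Cct7 was highest in 12 of 14 mouse ids. Cct6b, the testis form of the zeta subunit, had a level of 12.5 CPM per kb. The TRiC sum took 0.617% ± 0.101 of Let7d reads, 0.592% ± 0.149 of Let7e reads and 0.580% ± 0.102 of mi699a-5p reads, against 0.586% ± 0.0319 of NC reads.

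Among the cofactors of HSP70, the class A and B J proteins Dnajb6, Dnaja2 and Dnaja1 had levels of 235, 226 and 222 CPM per kb, while Dnajb1, the J protein best known from the heat shock response, had 23.6. The HSP110 gene Hspa4 had a level of 106 CPM per kb and its stress-inducible relative Hsph1 39.0. Hspbp1, a nucleotide exchange factor of HSP70, had 132 CPM per kb. The BAG factors were lower, from 45.7 for Bag1 to 2.04 for Bag4. Hsp90aa1, the inducible HSP90, had 198 CPM per kb, and the small heat shock protein gene Hspb1 24.1.

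In the ER the order was led by Dnajb9 (ERdj4, a J protein that feeds clients of ER-associated degradation to BiP) at 284 CPM per kb, Hspa5 (BiP, the HSP70 of the ER) at 127 and Dnajb11 (ERdj3, a soluble J protein of BiP) at 78.8. Hsp90b1 (GRP94, the HSP90 of the ER) had 28.7 and Dnajc3 (p58IPK) 16.8. In mitochondria Hspa9 (mortalin, the HSP70 of the matrix and of protein import) had 221 CPM per kb, the chaperonin Hspd1 (HSP60) 112, the import J protein Dnajc19 81.4 and the co-chaperonin Hspe1 (HSP10) 76.1. The lowest levels among the 59 were those of Dnajc27, Bag4 and Dnajc16, at 2.36, 2.04 and 1.94 CPM per kb.

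The 4 labels were compared to ask whether an injected microRNA altered chaperone transcripts. No chaperone gene passed the threshold (edgeR quasi-likelihood test, Benjamini-Hochberg adjusted p of at most 0.05 over 7886 genes): the count was 0 of 59 in Let7d against NC, Let7e against NC, mi699a-5p against NC, Let7e against Let7d and in the test of any difference among the labels. The share of all genes called was 0.0127% in Let7d against NC and 0% in the other tests. DESeq2 and limma called 0 of the 59 too. At an unadjusted p under 0.05 by edgeR there were 2 chaperone genes in Let7d against NC (3.39%, beside 4.69% of all genes), 2 in Let7e against NC (3.39%, beside 4.02%), 5 in mi699a-5p against NC (8.47%, beside 5.5%), 4 in Let7e against Let7d (6.78%, beside 5.39%) and 4 in the test of any difference (6.78%, beside 5.59%). By direction these were Hspa5 higher (2.65% of all genes) and Hspbp1 lower (2.04%) in Let7d, Dnajc27 higher (2.33%) and Hspbp1 lower (1.69%) in Let7e, and 3 genes higher (3.2%) and 2 lower (2.31%) in mi699a-5p, each against NC. In Let7e against Let7d, 2 were higher (2.79%) and 2 lower (2.6%). The 3 comparisons with NC share its 3 mouse ids.

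**Figure D2:**
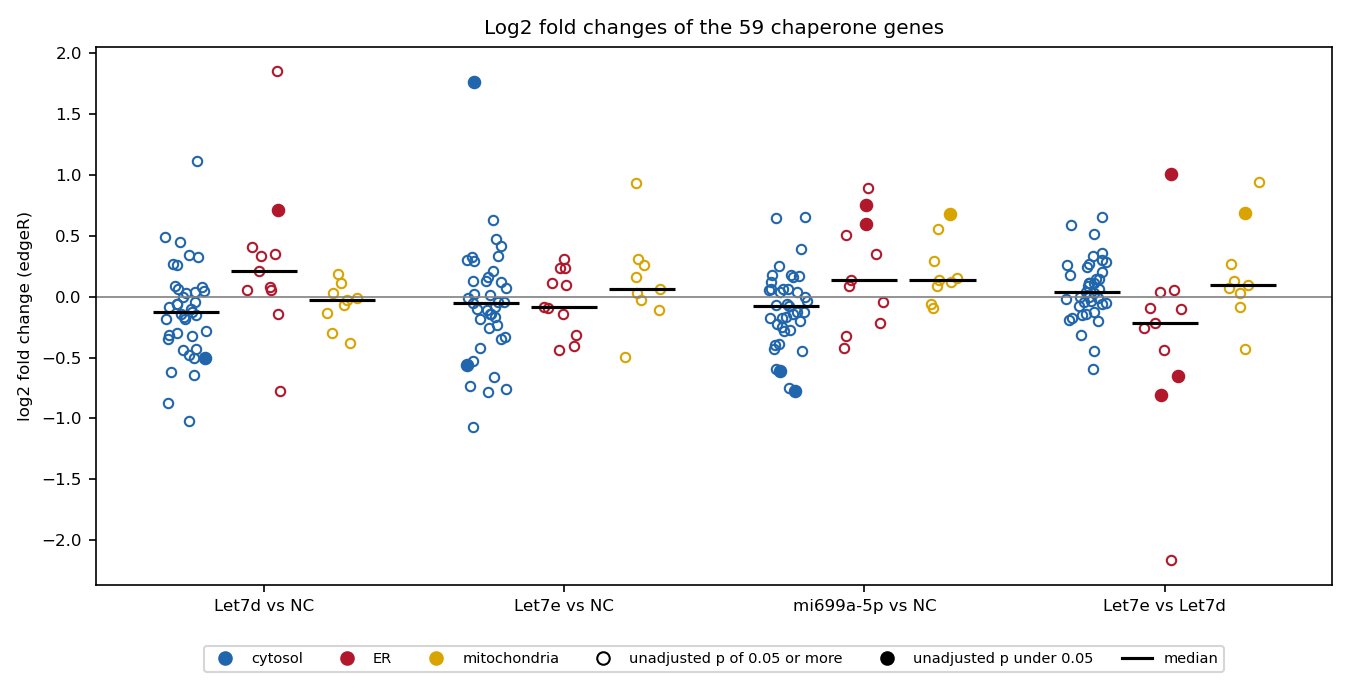
Log2 fold changes of the 59 chaperone genes in 4 comparisons (edgeR, summed counts per mouse id), split by compartment, with the median as a bar and filled points for an unadjusted p under 0.05. The ER median lies at 0.21 in Let7d against NC and at -0.22 in Let7e against Let7d, and 0 points pass adjustment over all genes.

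Log2 fold changes of the chaperones centred near 0. The median was -0.06 in Let7d against NC (0.01 over all genes), -0.04 in Let7e against NC (0.02), -0.00 in mi699a-5p against NC (0.04) and 0.03 in Let7e against Let7d (0.01). The 11 ER genes had a median of 0.21 in Let7d against NC with 9 of 11 above 0, where 51% of all genes lay above 0. They had -0.08 in Let7e against NC with 5 of 11 above 0 (51.9% of all genes), 0.13 in mi699a-5p against NC with 7 of 11 (54.1%) and -0.22 in Let7e against Let7d with 3 of 11 (50.8%). The 39 cytosolic genes had medians of -0.12, -0.05, -0.08 and 0.04 in the same order of comparisons, and the 9 mitochondrial genes -0.03, 0.07, 0.14 and 0.09.

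Groups that did not overlap were counted among the 59 genes. In Let7d against NC, 2 of 59 were higher in every Let7d mouse id and 6 of 59 lower, beside 6% and 5.96% of all genes. In Let7e against NC the counts were 2 and 5 (2.78% and 2.84%), in mi699a-5p against NC 2 and 3 (4.51% and 3.87%), and in Let7e against Let7d 2 and 1 (3.12% and 2.95%). As a share of the 59, the lower counts against NC exceeded those of all genes, most in Let7e. The comparisons with NC share its mouse ids, and the excess was not tested. The single gene lower in every Let7e than every Let7d mouse id was Dnajb11, which was also lower than NC in every Let7e and every mi699a-5p mouse id.

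In the test of any difference among the labels, the smallest p-values of the 59 genes belonged to the ER chaperones Hspa5 and Dnajb11. Hspa5 had 548, 777 and 417 CPM in the Let7d mouse ids and 368, 277, 241 and 438 CPM in those of Let7e. It had 402, 838, 506 and 635 CPM in mi699a-5p, against 350, 462 and 248 CPM in NC. The Let7d and mi699a-5p values thus lay mostly above those of Let7e and NC, yet each range overlapped that of NC. Hspa5 averaged 581 ± 183 CPM (SD) over 3 Let7d mouse ids, 331 ± 88.9 CPM over 4 Let7e mouse ids and 595 ± 188 CPM over 4 mi699a-5p mouse ids, against 354 ± 107 CPM over 3 NC mouse ids.

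In edgeR's test of any difference Hspa5 had p = 0.0108 (adjusted p = 0.8286), and its p stayed under 0.05 in 25 of 25 alternatives while the adjusted p ran from 0.204 to 1. Its log2 fold change was 0.72 ± 0.31 (SE) in Let7d against NC (edgeR p = 0.0344, adjusted p = 1), -0.09 ± 0.29 in Let7e against NC and 0.75 ± 0.30 in mi699a-5p against NC (edgeR p = 0.0206, adjusted p = 0.858). In Let7e against Let7d it was -0.81 ± 0.29 (edgeR p = 0.0117, adjusted p = 0.874). Without Let7d replicate 2, the mouse id with 777 CPM, the difference of Let7d from NC was 0.45 (p = 0.197) and that of Let7e from Let7d -0.55 (p = 0.099).

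Dnajb11, the J protein that works with BiP on nascent chains, had 212, 302 and 249 CPM in Let7d and 114.5, 192, 145 and 198 CPM in Let7e. It had 184, 180.1, 170.2 and 168 CPM in mi699a-5p, against 225, 234 and 199 CPM in NC. All Let7d mouse ids lay above all Let7e ones, and the 4 mi699a-5p values lay close together under the NC range. Dnajb11 had a log2 fold change of -0.65 ± 0.22 in Let7e against Let7d (edgeR p = 0.00829, adjusted p = 0.874), -0.43 ± 0.22 in Let7e against NC and -0.32 ± 0.22 in mi699a-5p against NC. In Let7d against NC it was 0.21 ± 0.24. Without Let7d replicate 2 the value in Let7e against Let7d was -0.51 (p = 0.0548). The highest Let7e value, 198.1 CPM, lay just under the lowest NC value, 198.9 CPM.

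**Figure D3:**
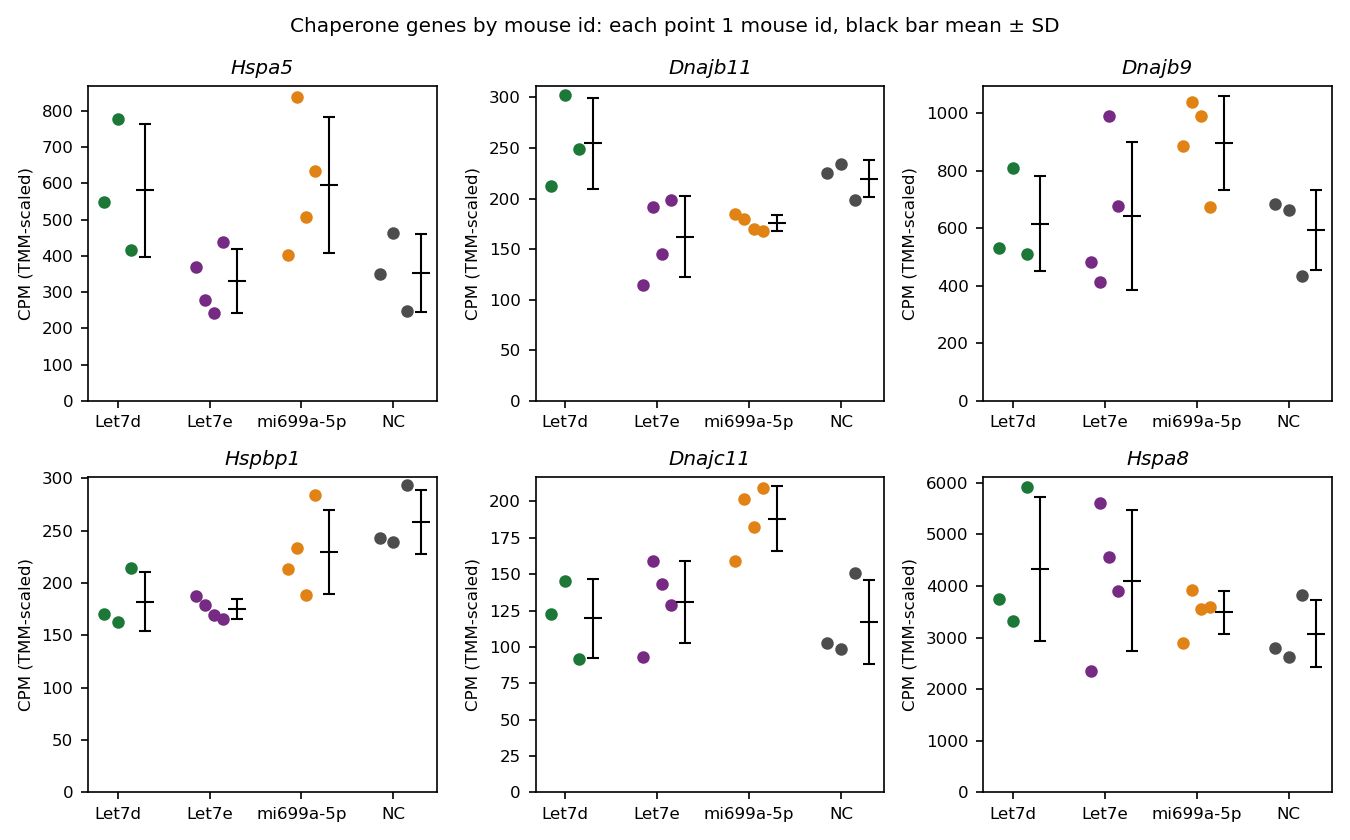
Levels of 6 chaperone genes in CPM (TMM-scaled), 1 point per mouse id, with the group mean and SD as a black bar beside the points. Hspa5 averages 581 CPM in Let7d and 595 in mi699a-5p, against 354 in NC, and Dnajb11 lies between 212 and 302 CPM in Let7d and between 114.5 and 198 in Let7e, so these groups do not overlap.

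Dnajb9 had 529.9, 808 and 512 CPM in Let7d and 484, 413, 989 and 679 CPM in Let7e. It had 887, 1040, 991 and 673 CPM in mi699a-5p, against 685, 662 and 433 CPM in NC. Of the mi699a-5p values, 3 lay above every NC value and 1 within the NC range. Its log2 fold change there was 0.60 ± 0.28 (edgeR p = 0.0492, adjusted p = 0.871), and 0.41 without NC replicate 3 (p = 0.205). Hsp90b1 had 106, 71.1 and 100.1 CPM in Let7d, 33.7, 55.4, 68.6 and 116 CPM in Let7e and 94.2, 91.8, 96.5 and 85.6 CPM in mi699a-5p, against 104, 66.1 and 46.5 CPM in NC. Its log2 fold changes were 0.35 ± 0.38, -0.08 ± 0.35 and 0.35 ± 0.36 in Let7d, Let7e and mi699a-5p against NC. Dnajc3, which binds clients in the ER lumen, had 126, 82.2 and 72.2 CPM in Let7d, 126, 82.0, 27.1 and 77.0 CPM in Let7e and 93.1, 79.4, 66.5 and 69.0 CPM in mi699a-5p, against 140.1, 126 and 43.6 CPM in NC. The NC mouse ids spanned nearly all of these values. Its log2 fold changes against NC were -0.14 ± 0.45 (Let7d), -0.40 ± 0.42 (Let7e) and -0.42 ± 0.42 (mi699a-5p).

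Dnajc14, a J protein of the ER membrane, had 23.36, 52.2, 54.4 and 32.0 CPM in Let7e, against 17.95, 23.38 and 19.1 CPM in Let7d. The lowest Let7e value met the highest Let7d value, and NC lay between 19.9 and 51.2 CPM. The log2 fold change in Let7e against Let7d was 1.01 ± 0.44 (edgeR p = 0.0356, adjusted p = 0.924). It was 0.61 (p = 0.312) when the fit held the Y-linked level too. Of 3 genes that overlap it, the one with the largest overlap covers 17% of its exon bases, and without strand these reads cannot be told apart. Dnajc16 had the widest fold changes among the ER members, 1.85 ± 1.38 in Let7d against NC and -2.17 ± 1.27 in Let7e against Let7d, at levels between 0 and 44.5 CPM.

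In the cytosol, Hspbp1 had lower values with both let-7 injections, and none passed adjustment. It had 170.2, 163 and 214 CPM in Let7d and 187, 179, 170 and 166 CPM in Let7e. It had 213, 234, 189 and 284 CPM in mi699a-5p, against 243, 239 and 294 CPM in NC. Each of the 7 let-7 mouse ids lay below each NC mouse id, while mi699a-5p overlapped NC. The log2 fold change was -0.50 ± 0.22 in Let7d against NC (edgeR p = 0.0314, adjusted p = 0.993) and -0.56 ± 0.20 in Let7e against NC (edgeR p = 0.0119, adjusted p = 0.999), against the same 3 NC mouse ids. In mi699a-5p against NC it was -0.17 ± 0.20, and in Let7e against Let7d -0.06 ± 0.20. Without NC replicate 3 the 2 let-7 values were -0.40 (p = 0.114) and -0.46 (p = 0.0598).

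Hspa8 had 3743, 3322 and 5926 CPM in Let7d and 2347, 5616, 4559 and 3898 CPM in Let7e. It had 2905, 3918, 3553 and 3586 CPM in mi699a-5p, against 2801, 2616 and 3818 CPM in NC. The highest values were single mouse ids of Let7d and Let7e, and all groups overlapped. Its log2 fold change against NC was 0.49 ± 0.28 in Let7d (edgeR p = 0.0908, adjusted p = 1), 0.42 ± 0.26 in Let7e and 0.18 ± 0.26 in mi699a-5p. The Let7d value was 0.21 (p = 0.484) without Let7d replicate 3 and 0.35 without the 7 cells rich in short transcripts. The median share of reads in short transcripts was 11.5% for Let7d cells, against 19.6% for NC cells. Over 81 cells, each centred on its mouse id, Hspa8 had a correlation of -0.75 with that share. Its part in the label difference, beyond the 7 cells, was not tested.

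Both cytosolic HSP90 genes overlapped NC in every injected group. Hsp90ab1 had 5160, 5022 and 7884 CPM in Let7d, 4911, 7909, 8026 and 6388 CPM in Let7e and 6489, 6461, 5598 and 5685 CPM in mi699a-5p, against 6431, 5600 and 6632 CPM in NC. Its log2 fold changes against NC were -0.05 ± 0.21, 0.13 ± 0.20 and -0.04 ± 0.20 for the 3 injections in that order. Hsp90aa1 had 436, 454 and 701 CPM in Let7d, 694, 698, 771 and 517 CPM in Let7e and 687, 730.1, 706 and 454 CPM in mi699a-5p, against 691, 573 and 989.8 CPM in NC. In each injected group at least 1 value lay inside the NC range. Its log2 fold change in Let7d against NC was -0.50 ± 0.26 (edgeR p = 0.0669, adjusted p = 1), and -0.25 without NC replicate 3 (p = 0.362). Hsp90aa1 had a correlation of 0.49 over cells with the share of reads in short transcripts, whose median was lower in Let7d. The part of that share in this difference was not tested.

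Dnajb1 had 49.3, 82.0 and 58.6 CPM in Let7d, 48.15, 97.8, 53.9 and 74.0 CPM in Let7e and 47.7, 85.9, 35.6 and 60.7 CPM in mi699a-5p, against 84.6, 94.8 and 116 CPM in NC. All Let7d values lay under the NC range, and 3 of the 4 Let7e and 3 of the 4 mi699a-5p values did. Its log2 fold change was -0.64 ± 0.36 (Let7d), -0.52 ± 0.33 (Let7e) and -0.78 ± 0.33 (mi699a-5p) against NC, the last with edgeR p = 0.0305 (adjusted p = 0.866). Dnajc2, a J protein bound to the ribosome, had 260.1, 255 and 409 CPM in Let7d, 334, 378, 285 and 217 CPM in Let7e and 372, 242, 203 and 183 CPM in mi699a-5p, against 393, 354 and 399.9 CPM in NC. Its mi699a-5p replicate 1 lay within the NC range and the other 3 below it, with a log2 fold change in mi699a-5p against NC of -0.61 ± 0.26 (edgeR p = 0.0303, adjusted p = 0.866).

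Among J proteins with low levels, Dnajc27 and Dnajc13 had some of the smallest p-values in Let7e against NC. Dnajc27, a J protein with a Rab-like GTPase domain, had 8.85, 12.9, 28.7 and 21.5 CPM in Let7e, against 7.66, 5.599 and 2.51 CPM in NC. The groups did not overlap, and the log2 fold change was 1.77 ± 0.75 (edgeR p = 0.0303, adjusted p = 0.999). Dnajc13, an endosomal J protein, had 34.2, 35.9, 28.9 and 15.7 CPM in Let7e, against 42.2, 47.8 and 52.7 CPM in NC, again without overlap, with a log2 fold change of -0.73 ± 0.35 (edgeR p = 0.0508, adjusted p = 0.999).

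Hspbap1 had a log2 fold change of 0.63 ± 0.33 in Let7e against NC and Bag6, a holdase for tail-anchored proteins, 0.59 ± 0.34 in Let7e against Let7d, and the groups of both comparisons overlapped. Without Let7e replicate 3 the Hspbap1 value was 0.30 (p = 0.342), and without Let7d replicate 3 the Bag6 value was 0.29 (p = 0.415). Hsph1 reached 267 CPM in Let7d replicate 3 and 69.9 CPM in Let7d replicate 2, and its log2 fold change in Let7d against NC was 0.34 ± 0.37, or -0.24 without replicate 3. Hspa4, its HSP110 relative, had 0.08 ± 0.22 (Let7d), 0.12 ± 0.21 (Let7e) and 0.25 ± 0.21 (mi699a-5p) against NC. Dnaja1, which ferries clients to HSP70, had -0.18 ± 0.27, 0.02 ± 0.25 and -0.20 ± 0.25 in that order.

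The TRiC subunits lay close to 0 in every comparison. For Tcp1, Cct2, Cct3, Cct4, Cct5, Cct6a, Cct7 and Cct8 the 32 log2 fold changes lay between -0.27 (Cct7, mi699a-5p against NC) and 0.30 (Cct8, Let7e against Let7d), with standard errors of 0.21 to 0.27. Cct2 in mi699a-5p, at 393, 469, 469 and 460.1 CPM, lay below each NC value (544, 507.5 and 544 CPM), with a log2 fold change of -0.25 ± 0.21. Cct4, the delta subunit, had 848, 743 and 1121 CPM in Let7d, 522, 1102, 929 and 1228 CPM in Let7e and 711, 1027, 1076 and 1053 CPM in mi699a-5p, against 938, 855 and 796 CPM in NC. In each injected group Cct4 had values both above and below the NC range, and its log2 fold changes against NC were 0.07 ± 0.27, 0.13 ± 0.25 and 0.16 ± 0.25.

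Among mitochondrial genes, Dnajc11, a J protein associated with the inner membrane organising complex, had the smallest p in mi699a-5p against NC, without passing adjustment. It had 123, 145 and 91.4 CPM in Let7d and 93.3, 159.1, 143 and 129 CPM in Let7e. It had 159.2, 202, 182 and 209 CPM in mi699a-5p, against 103, 98.3 and 151 CPM in NC. Every mi699a-5p value lay above the NC range, while the let-7 groups overlapped it. The log2 fold change was 0.68 ± 0.25 in mi699a-5p against NC (edgeR p = 0.0152, adjusted p = 0.858, with 0.248 to 0.999 over the alternatives). With equal weight per cell the p of limma in that comparison was 0.11. Against NC the log2 fold change was 0.03 ± 0.27 in Let7d and 0.16 ± 0.25 in Let7e.

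Dnajc19, which stimulates mortalin at the import channel, had 90.7, 65.2, 51.3 and 56.8 CPM in Let7e, against 41.9, 34.3 and 46.7 CPM in Let7d. Its NC values were 48.9, 52.5 and 58.3 CPM. Let7e lay above Let7d in every mouse id and overlapped NC. Its log2 fold change in Let7e against Let7d was 0.69 ± 0.31 (edgeR p = 0.0414, adjusted p = 0.924), and its principal transcript of 659 bases is one of the short ones. Let7e replicate 1, with the highest Dnajc19, holds 2 of the 7 cells rich in short transcripts, and the log2 fold change was 0.49 without the 7 cells (0.49 and p = 0.139 without that mouse id).

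Mortalin and the HSP60 system overlapped NC in every injected group. Hspa9 had 645, 538 and 823 CPM in Let7d, 616, 820.2, 752 and 619.7 CPM in Let7e and 683, 673, 834 and 682 CPM in mi699a-5p, against 548, 709 and 503 CPM in NC. Each injected group overlapped NC, and log2 fold changes were 0.19 ± 0.21, 0.26 ± 0.20 and 0.29 ± 0.20. Hspd1 had 335, 214 and 287 CPM in Let7d, 183, 317, 218 and 335 CPM in Let7e and 258, 339.6, 281 and 255 CPM in mi699a-5p, against 292, 254 and 227 CPM in NC, with log2 fold changes of 0.11 ± 0.25, 0.03 ± 0.24 and 0.14 ± 0.24. Hspe1, transcribed from the same promoter region in the opposite direction, had -0.13 ± 0.36, -0.11 ± 0.34 and 0.16 ± 0.34, the last turning to -0.40 without the 7 cells rich in short transcripts. Dnaja3, a J protein of the matrix, had -0.07 ± 0.38, -0.50 ± 0.35 and 0.12 ± 0.35. Without strand, the 112 bases in which Hspd1 and Hspe1 overlap cannot be assigned to either.

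Because both let-7 forms share a seed, 3′ UTRs were searched for its complement on the transcript strand. A match to 7 bases occurred in 6 of 57 chaperone genes with a 3′ UTR (10.5%), beside 730 of 7542 genes (9.68%), and a match extended to 8 bases in 0 of 57, beside 3.45% of all genes. The matched genes included Dnajc1, Dnajc3, Dnajb12, Dnaja2 and Dnajc5. The sites below are from GENCODE M21 transcripts, 5′ to 3′ on the transcript strand, with the seed match in capitals; they lie at chr14:118980120-118980148 (plus strand, Dnajc3) and chr8:85537776-85537804 (minus strand, Dnaja2) of GRCm38.p6.
Dnajc3: cccagatctagCTACCTCctaacttgctt
Dnaja2: ccctatccactCTACCTCcattgtacaaa
The log2 fold changes of Dnajc3 were -0.14 in Let7d and -0.40 in Let7e against NC, and those of Dnaja2 0.26 and 0.29. The 6 matched genes had medians of 0.24 (Let7d) and -0.01 (Let7e), beside -0.06 and -0.04 for the 51 without a match. Over all genes the medians with a match were 0.05 and 0.01, and those without 0.005 and 0.02. In mi699a-5p against NC, the medians over all genes were 0.08 with a match and 0.04 without. Those of the chaperones were -0.04 and 0.04. Matched genes had longer 3′ UTRs, with a median of 2341 bases beside 925 over all genes and 2672 beside 591 among chaperones. The part of this length was not tested.

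Promoters from RefSeq (250 bases before to 50 after the start, GRCm38.p6) were available for 49 of the 59 genes and were searched on both strands. Genes without one, among them Hsp90aa1, Hsp90ab1, Hspa8, Hspa9 and Cct4, were not searched. The heat shock element GAANNTTCNNGAA occurred in 4 of the 49 (8.16%: Dnajb6, Hspd1, Hspe1 and Hsph1), beside 179 of 27025 genes with a promoter (0.662%). The ER stress response element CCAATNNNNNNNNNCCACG occurred in 3 of the 49 (6.12%: Hspa5, Hsp90b1 and Dnajc3), beside 37 of 27025 (0.137%). Both shares count genes with a match in any of their promoters; of single promoters, 0.603% and 0.119% of 32851 held a match. A match is a description and says nothing of binding. One match per gene is given below in capitals, at chr2:34772020-34772048 (plus strand, Hspa5), chr10:86705633-86705661 (minus strand, Hsp90b1), chr14:118937822-118937850 (plus strand, Dnajc3), chr1:55088054-55088076 (minus strand, Hspd1) and chr5:29735847-29735869 (plus strand, Dnajb6).
Hspa5: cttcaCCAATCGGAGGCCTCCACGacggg
Hsp90b1: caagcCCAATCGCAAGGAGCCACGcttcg
Dnajc3: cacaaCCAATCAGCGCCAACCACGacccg
Hspd1: ttccgGAAGGTTCTAGAAcggac
Dnajb6: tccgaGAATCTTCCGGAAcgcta
The match starts 65 bases before the transcription start for Hspa5, 212 for Hsp90b1, 105 for Dnajc3 and 139 for Hspd1. Hspd1 and Hspe1 share the same matched stretch between their divergent starts. Among the 3 genes with the ER element, the log2 fold changes in Let7d against NC were 0.72 (Hspa5), 0.35 (Hsp90b1) and -0.14 (Dnajc3), and in mi699a-5p against NC 0.75, 0.35 and -0.42. All 3 were below 0 in Let7e against NC (-0.09 ± 0.29, -0.08 ± 0.35 and -0.40 ± 0.42), each by less than its standard error. They were also below 0 in Let7e against Let7d (-0.81 ± 0.29, -0.44 ± 0.35 and -0.26 ± 0.42). Of all genes, 51.9% and 50.8% lay above 0 in these comparisons. Those with the heat shock element lay between -0.14 and 0.34 in all 4 comparisons.

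Partner genes outside the symbol rule gave a similar count. By edgeR 0 genes passed in any comparison among 15 HSP90 and HSP70 co-chaperones measured, 3 heat shock factor genes, 10 prefoldin and TRiC partners, 16 genes of ER folding and the unfolded protein response and 14 mitochondrial chaperones and proteases. Among the ER genes, the disulfide isomerase gene Pdia4 had the smallest p, with a log2 fold change of 1.08 ± 0.42 in Let7d against NC (edgeR p = 0.0207, adjusted p = 0.986) and -1.44 ± 0.39 in Let7e against Let7d (edgeR p = 0.00177, adjusted p = 0.845). In mi699a-5p against NC Pdia4 had -0.14 ± 0.39, and Pdia6, another disulfide isomerase gene, had the smallest p of the ER list there (-0.96 ± 0.44, edgeR p = 0.0421, adjusted p = 0.871). Clpp, a subunit of a matrix protease, had 0.71 ± 0.31 in Let7e against NC and 0.75 ± 0.31 in Let7e against Let7d. Pdcl, a phosducin-like partner of TRiC, had -1.16 ± 0.54 in Let7d against NC and 1.27 ± 0.52 in Let7e against Let7d. Nudc, a co-chaperone of HSP90, had -0.48 ± 0.20 and Hsbp1, which binds heat shock factor 1, 0.58 ± 0.34 in mi699a-5p against NC. Median log2 fold changes of the ER list were -0.00 (Let7d), -0.10 (Let7e) and -0.04 (mi699a-5p), each against NC. Measured immediate early genes (4 of 8) summed to 14.1 to 102 CPM in Let7d, 20.1 to 68.8 CPM in Let7e and 17.1 to 110 CPM in mi699a-5p, against 22.3 to 72.1 CPM in NC, and their part in the chaperone values was not tested.

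Chaperone genes were steadier between blastomeres than most genes and near the trend for their level. The SD of log2(CPM + 1) between blastomeres of a mouse id had a median of 0.847 over the 59 genes, beside 1.55 over all genes, and 35 of 59 (59.3%) were detected in each of the 81 blastomeres, beside 34.1% of all genes. Against a trend of SD on mean level fitted over all genes, 31 of 59 (52.5%) lay below it, beside 51.5% of all genes. Mitochondrial members lay below the trend in 7 of 9 cases, cytosolic ones in 20 of 39 and ER ones in 4 of 11. Without the 7 cells rich in short transcripts the median SD was 0.741, beside 1.505 over all genes.

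**Figure D4:**
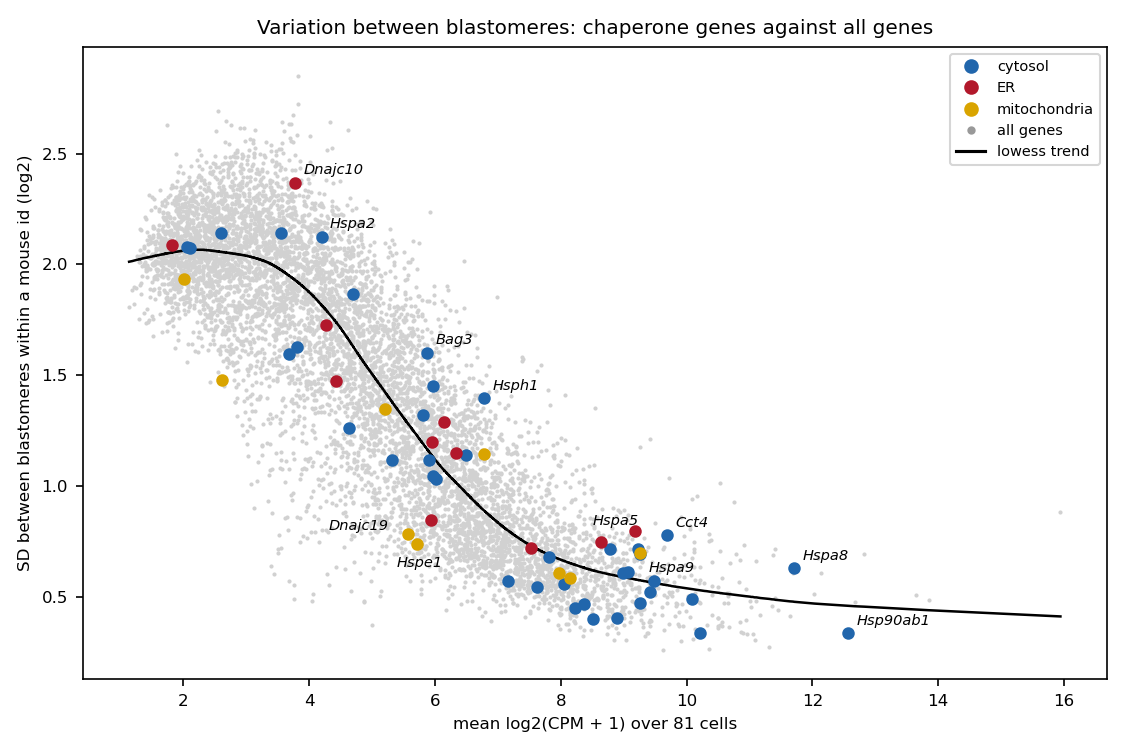
SD of log2(CPM + 1) between blastomeres of a mouse id against the mean level over 81 cells, for 59 chaperone genes (coloured by compartment) and all 7886 genes (grey), with a lowess trend. Hsph1 (SD 1.40) lies above the trend (0.89) and Dnajc19 (0.78) and Hspe1 (0.74) lie below theirs (1.28 and 1.23).

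Hsph1 varied most for its level, with an SD of 1.40 where the trend gives 0.89. Its blastomeres ran from 0 to 490 CPM with a median of 122. As examples, they ran from 28.1 to 234 CPM in Let7d replicate 1, 107 to 490 CPM in Let7d replicate 3 and 66.8 to 144 CPM in NC replicate 3. In the 12 mouse ids with more than 2 cells and no cell at 0, the highest blastomere exceeded the lowest by 1.64 to 235.3 times (median 5.46). Bag3, a BAG factor of selective autophagy, followed with 1.60 against 1.17, Dnajc10, a disulfide reductase of the ER, with 2.37 against 1.93, Dnajc5, the cysteine string protein, with 1.45 against 1.13 and Hspa2, an HSP70 known from testis, with 2.13 against 1.82. All 5 are genes with cells at 0. Among members with a mean of at least 10 CPM, Dnajc19 (0.78 against 1.28) and Hspe1 (0.74 against 1.23) were steadiest for their level. Next came Dnajc24 of diphthamide synthesis (1.26 against 1.66) and the nuclear J protein gene Dnajc17 (1.60 against 1.95). Dnajb12 of the ER membrane followed (0.85 against 1.14). The trend takes no account of transcript length. Principal transcripts of these steady genes have 659, 774, 1197, 1008 and 3070 bases in that order. Those of the 5 variable genes above have 2526 to 6578 bases, and the part of length was not tested.

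Hsp90ab1 was among the steadiest genes in absolute terms, with an SD of 0.34, lower than in all but 0.178% of genes, and blastomeres between 2194 and 9974 CPM. In the median of 13 mouse ids with more than 2 cells its highest blastomere exceeded the lowest by 1.55 times. The same ratio had a median of 2.48 for Hspa8, 2.93 for Hspa5, 3.82 for Dnajb9 and 1.94 for Cct4, where it reached 29.0 in mi699a-5p replicate 2. Without the 7 cells rich in short transcripts the median ratio was 1.48 for Hsp90ab1, 1.86 for Hspa8, 2.71 for Hspa5, 3.26 for Dnajb9 and 1.83 for Cct4, and Cct4 had a ratio of 2.14 in that mouse id. Hspa5 ran from 138 to 1865 CPM in that mouse id (from 318.5 CPM without the cell rich in short transcripts), from 226.5 to 1709 CPM in Let7d replicate 2, against 125 to 965 CPM in NC replicate 2.

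Most of the variance lay between blastomeres. Over the 59 genes the median split of the sum of squares was 77.7% between cells of a mouse id, 15.8% between mouse ids of a label and 5.1% between labels, beside 79.4%, 14.9% and 4.7% over all genes. The degrees of freedom alone give 83.75%, 12.5% and 3.75%. The share between mouse ids was highest for Dnaja1 (47.8%), Dnajb14 of the ER membrane (45.3%) and Cct7 (33.7%). Dnaja1 had between 886.5 and 1749 CPM per mouse id, with low and high ends in more than one group, and Dnajb14 between 27.2 and 214 CPM. The share between labels was highest for Hspa5 (19.8%), which is the same difference that its test describes.

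TRiC subunits varied together from blastomere to blastomere, in part with the cells rich in short transcripts. With each gene centred on its mouse id, the 28 pairs of 8 subunits had correlations from 0.28 to 0.88 over 81 cells (median 0.62), beside a median of 0.19 for the 31 chaperone genes with at least 100 CPM and 0.04 for all 2091 such genes. Without the 7 cells rich in short transcripts the TRiC median was 0.29 (-0.05 to 0.65, 26 of 28 above 0), beside 0.08 and 0.01. With the short-transcript share regressed out it was 0.44, beside 0.10 and 0.01. These are descriptions, since the cells share libraries, depth and amplification. The pair Cct4 and Cct8 gave 0.88 in all cells and 0.65 without the 7. Hspa8, which is no TRiC subunit, gave 0.77 with Cct4 and 0.76 with Cct5 in all cells, above the TRiC median. Without the 7 cells Hspa8 and Cct4 had 0.39, so such correlations were not confined to the complex.

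**Figure D5:**
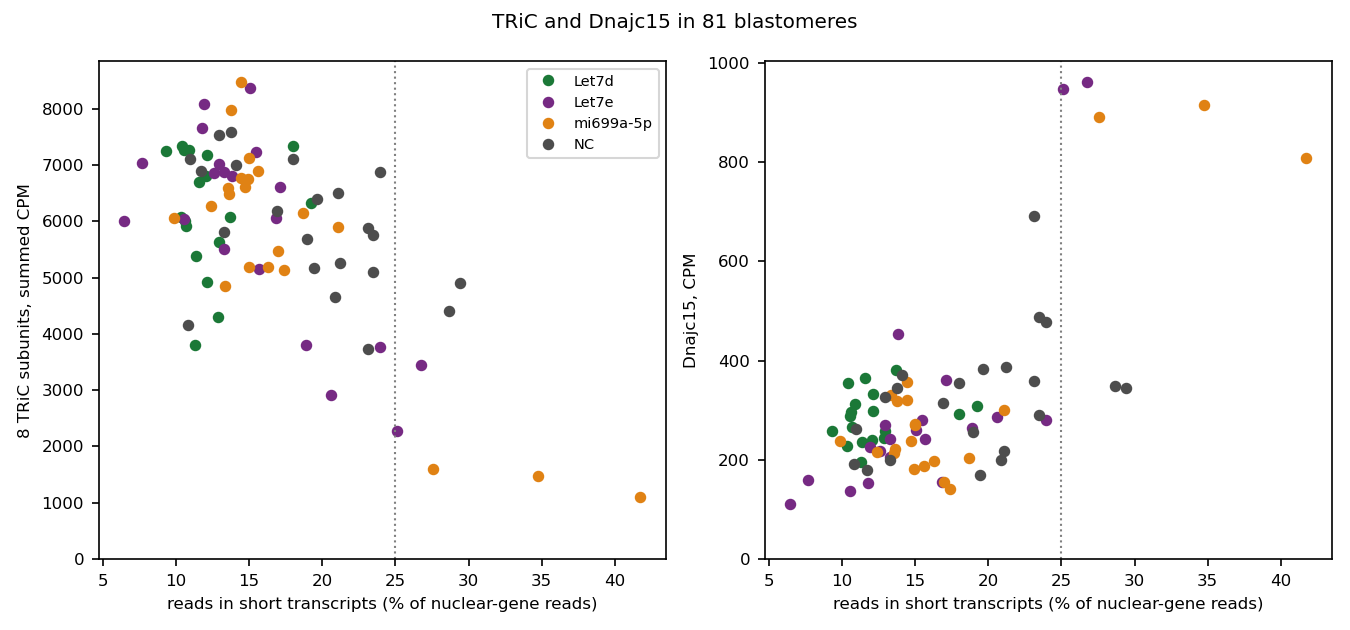
Summed CPM of 8 TRiC subunits (left) and CPM of Dnajc15 (right) in 81 blastomeres, against the share of nuclear-gene reads in short transcripts, coloured by label, with a dotted line at 25%. The 7 cells right of the line hold 1107 to 4901 CPM of TRiC and the other 74 hold 2919 to 8470 CPM, while Dnajc15 reaches 961 CPM right of the line and 692 CPM left of it.

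By their medians, the 7 cells differed from the others in named chaperones. Summed TRiC subunits had 1107 to 4901 CPM there (median 2274), against 2919 to 8470 CPM (median 6296) in the other 74. Hspa8 had 574 to 2687 CPM (median 1351), against 1246 to 8471 CPM (median 3817). Dnajc15, a J protein of the mitochondrial inner membrane, went the other way, with 345 to 961 CPM (median 890.5), against 112 to 692 CPM (median 263). The NC replicate 3 cells among the 7 lay inside the range of the other 74 for each of these. They had 4403 and 4901 CPM of TRiC, 1903 and 2687 of Hspa8 and 349 and 345 of Dnajc15. Across all 81 cells 24 of 31 chaperone genes had a negative correlation with the short-transcript share (median -0.42), beside 70.16% of all 2091 genes (median -0.21): -0.75 for Hspa8, -0.73 for Cct4, 0.66 for Dnajc15 and 0.49 for Hsp90aa1. The principal transcripts of Dnajc15 and Hsp90aa1, at 6193 and 3281 bases, are not short. What raises the share in these cells was not tested.

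Other pairs differed in how far their correlation depended on those cells. Hspa5 and its J protein Dnajb11 had 0.61 in all cells and 0.52 without the 7, while Hspa5 and Dnajb9 had 0.31 and 0.24. Hspd1 and Hspe1 had 0.23 and 0.31, and Hspa8 and Hsp90ab1 0.13 and 0.43. Hspa8 and Hspa9 had 0.75 and 0.41, and Dnajc15 and Hspa9 -0.66 and -0.24. Over the 14 mouse ids the TRiC subunits had a median correlation of 0.636, with no value for all genes beside it. Genes most like the TRiC mean in log2 CPM were picked as the highest correlations over all genes. Outside the 59 these were Cnbp (r = 0.911), Hbp1 (0.875) and Gm16427 (0.839). Among the 59 they were Dnaja2 (0.770), Hspd1 (0.718) and Hspa8 (0.712). Let7e replicate 1 (0.381%) and mi699a-5p replicate 1 (0.430%) had the lowest TRiC shares of reads and hold some of the 7 cells. The part of those cells in the correlations over mouse ids was not tested.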

How the data were processed

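The authors deposited raw read counts per gene and blastomere, and RPKM values, in tables that the authors had filtered on CPM, per the file names. The aligner STAR and the build GRCm38.p6 come from a list of tools (per the submitters' processing notes), and the counting program is not given in the sources used here. RPKM was not tested, because the gene length implied by RPKM and counts varied by a median factor of 223.7 between cells. Of 92 labelled cells 82 had a column. One pair of columns (Let7d replicate 2) differed by about the sampling noise (chi-square of 1.05 per gene, 28.7 for the next pair) and was counted as 1 cell, leaving 81.

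Counts were summed per mouse id and fitted for all 4 groups together with edgeR 4.0.16 in R 4.3.3 (TMM, filterByExpr, which removed 0 genes, quasi-likelihood F test, two-sided, Benjamini-Hochberg at 0.05 over 7886 genes). Errors of log2 fold changes are standard errors. CPM per mouse id is TMM-scaled, CPM per cell uses the cell's own total, and both cover counting error with amplification copies included. Levels per kb use the principal GENCODE M21 transcript. Blastomere variation used log2(CPM + 1) around the mean of the mouse id. DESeq2 1.42.0 and limma 3.58.1 served as alternatives, and the scripts were tested on simulated data.

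The members and gene lists were chosen with earlier results of these data known. Genes were named when they were major chaperones of their compartment, among the 5 smallest p-values of a comparison, among the 3 highest levels of a compartment, or at the extremes of blastomere variation or of the share between mouse ids; the genes named for not overlapping, for a let-7 or promoter match, for a correlation or for a low level were chosen after their values were seen. The annotation lists 16 pseudogenes under the same symbols, whose reads the counting could share. Strand was not used, as the kit does not mark it. Samples with the same number did not deviate together (19 pairs, r from -0.126 to 0.128), so numbers were not used as pairs. One let-7 site is not reported here.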

Additional observations from a re-analysis of the deposited data

Results flagged for a closer look

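Within groups of 4 mouse ids, a value was singled out when its gap to the nearest other value exceeded Dixon's critical share of the group's whole range for 4 values. Of 82 groups tested (41 named chaperone genes in Let7e and in mi699a-5p), 4 met it, and chance gives about 1 in 20, so this number is no more than chance gives. All 4 were mi699a-5p groups. Cct2 had 393 CPM in mi699a-5p replicate 1, with the other mouse ids between 460.1 and 469 CPM. Cct4 had 711 CPM in the same replicate, with the others between 1027 and 1076 CPM. This replicate holds 2 of the 7 cells rich in short transcripts, in which the TRiC subunits were low, and without the 7 cells the log2 fold changes in mi699a-5p against NC were -0.19 for Cct2 (-0.25 with them) and 0.22 for Cct4 (0.16 with them). Hsp90aa1 had 454 CPM in mi699a-5p replicate 4, with the others between 687 and 730.1 CPM. Hspa9 had 834 CPM in mi699a-5p replicate 3, with the others between 673 and 683 CPM.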

How the results depend on the processing

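No chaperone gene was called in any of the 5 tests under 12 other settings or with 1 of the 14 mouse ids left out. The median log2 fold change of the 59 genes moved by more than the spread between mouse ids in 1 case: with equal weight per cell (limma) it was -0.10 in Let7e against Let7d, where edgeR gave 0.03, and all genes moved with it (-0.08 against 0.01); the same setting moved the median of all genes to 0.11 in Let7d against NC, where edgeR gave 0.01. Leaving out 1 mouse id gave medians of -0.08 to 0.00 (Let7d against NC), -0.08 to 0.04 (Let7e against NC), -0.06 to 0.02 (mi699a-5p against NC) and -0.02 to 0.10 (Let7e against Let7d). With the number of the mouse id as a replicate block the medians were -0.03, -0.04, -0.00 and -0.00, and 0 members were called. Same-numbered mouse ids had a median correlation of 0.018, so the block rests on the number alone. Over all genes DESeq2 called 3 (Let7d against NC), 0 (Let7e against NC), 6 (mi699a-5p against NC), 8 (Let7e against Let7d) and 15 (any difference), where edgeR called 1, 0, 0, 0 and 0. Of single-gene values under the alternatives, 3065 moved by less than the spread between mouse ids and 10 by more, among them Hspe1 in mi699a-5p against NC (0.16, and -0.40 without the cells rich in short transcripts, a setting chosen after the data were seen). The median SD between blastomeres was 0.762 to 0.889 and the share between mouse ids 13.98% to 16.31% with 1 mouse id left out. Standard errors limit the low genes: those of Bag4, Dnajc16 and Dnajc27 were 0.72 or more, and the part of depth in them was not tested.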
